A study of Mus musculus with 96 samples.

Results

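H3K4me3 was compared between double-knockout (DKO) and wild-type (WT) hippocampal nuclei of the NeuN- fraction, the nuclei that sorting left without the neuronal protein NeuN. The comparison used 6 of the 96 samples of the series, 3 per genotype, and all 3266 consensus peaks of the H3K4me3 NeuN- table that lie outside an interval of chromosome 2, of 3270 in all. The 4 peaks left out lie between bases 98662501 and 98667360. WT mice were C57BL/6N, DKO mice carried both the Mutyh-/- and the Ogg1-/- allele (Mutyh-/-xOgg1-/-), and all were males of 6 months. Both knockouts are constitutive, so glycosylase loss was not limited to a cell type, and each sample pooled hippocampi of several animals of one genotype. The 6 libraries of the Mutyh-/- and Ogg1-/- single knockouts from the same table shared the fit and are given beside the DKO values.

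OGG1 removes 8-oxoguanine, an oxidised guanine, from DNA, and MUTYH removes the adenine misincorporated opposite it. Both are glycosylases that start base excision repair. H3K4me3 is a histone mark laid down by the SET1 and MLL (KMT2) methyltransferase complexes, mostly at the CpG-rich start sites of active or poised genes. In the hippocampus the NeuN- fraction holds oligodendrocytes and their precursors, astrocytes, microglia and vascular cells, so a peak in it is a mixture of these.

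Of the 3266 peaks, 3055 were annotated by the authors as promoters and 211 as something else, with 130 distal intergenic, 39 intronic, 28 exonic and 14 in untranslated parts of transcripts. Each peak is a counting window of fixed width given the name of its closest gene, which does not show that it acts on that gene. The sequences below, 150 bases from the centre of 6 windows that the results turn on, show the base composition of 3 promoter windows and of leading windows outside promoters. They are the plus strand of GRCm38, and capitals mark CG dinucleotides.
Jund promoter, chr8:70699655-70699804: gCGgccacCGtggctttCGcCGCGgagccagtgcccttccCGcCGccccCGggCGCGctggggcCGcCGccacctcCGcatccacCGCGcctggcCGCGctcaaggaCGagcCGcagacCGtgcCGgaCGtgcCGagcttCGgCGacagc
Gna11 promoter, chr10:81544628-81544777: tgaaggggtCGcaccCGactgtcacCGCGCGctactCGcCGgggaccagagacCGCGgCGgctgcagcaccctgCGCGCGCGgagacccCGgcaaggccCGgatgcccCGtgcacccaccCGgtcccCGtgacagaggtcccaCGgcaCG
B2m promoter, chr2:122147974-122148123: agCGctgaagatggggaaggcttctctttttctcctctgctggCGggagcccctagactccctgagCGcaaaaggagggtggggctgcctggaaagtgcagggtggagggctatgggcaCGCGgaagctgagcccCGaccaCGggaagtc
Axin2 distal window, chr11:109011893-109012042: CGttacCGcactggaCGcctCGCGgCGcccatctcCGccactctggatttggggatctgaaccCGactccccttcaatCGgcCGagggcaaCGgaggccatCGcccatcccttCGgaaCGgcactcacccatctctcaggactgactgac
Cdk8 intronic window, chr5:146260984-146261133: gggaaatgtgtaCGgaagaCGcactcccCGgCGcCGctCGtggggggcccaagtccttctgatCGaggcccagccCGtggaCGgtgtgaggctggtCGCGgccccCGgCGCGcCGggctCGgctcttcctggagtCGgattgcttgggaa
Fbxw4 intronic window, chr19:45650095-45650244: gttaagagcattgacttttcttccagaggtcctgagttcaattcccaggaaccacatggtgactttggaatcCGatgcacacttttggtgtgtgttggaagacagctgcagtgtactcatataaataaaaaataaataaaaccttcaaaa
The 3 promoter stretches held 25, 21 and 7 CG dinucleotides. The Axin2 and Cdk8 stretches, outside promoters, held 14 and 17, within the range of the 3 promoter stretches, while the Fbxw4 stretch held 1. Over whole windows the median was 43 CG dinucleotides and 70.6% GC at promoter peaks, against 5 and 45.6% at the other peaks.

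Libraries were shallow and unlike each other. Reads in peaks outside the chromosome 2 interval numbered 28377, 46695 and 22912 in WT replicates 1, 2 and 3 and 57498, 42442 and 27728 in the DKO replicates, and the median peak had 5 to 16 reads. Replicate 1 of both genotypes stood apart: the chromosome 2 interval took 30.6% of its reads in WT and 25.5% in DKO, against 55.0% to 64.6% in the other 4 libraries, and promoters took 89.5% and 91.2% of the remaining reads against 66.1% to 77.0%. Differences between DKO and WT in total reads and these shares were within the replicate spread (6 measures, exact two-sided permutation tests, p = 0.4 to 0.9, adjusted p = 0.72 to 0.9), although 3 against 3 cannot give a p below 0.1. Across peaks, Spearman's rho was 0.16 to 0.21 between WT libraries, 0.15 to 0.22 between DKO libraries and 0.11 to 0.29 between a DKO and a WT library, so these ranges overlapped within and between genotypes. Some values are listed at 0 where depth alone would give reads: of 1438 peaks with a median of at least 10 scaled reads over the 12 libraries, 11 to 67 were at 0 in a WT library and 5 to 48 in a DKO library. Whether input reads were subtracted is not given in the sources used here, so the text gives no fold where all 3 libraries of a genotype are at 0. Plotted folds of such peaks depend on the pseudocount and are no bound.

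**Figure D1:**
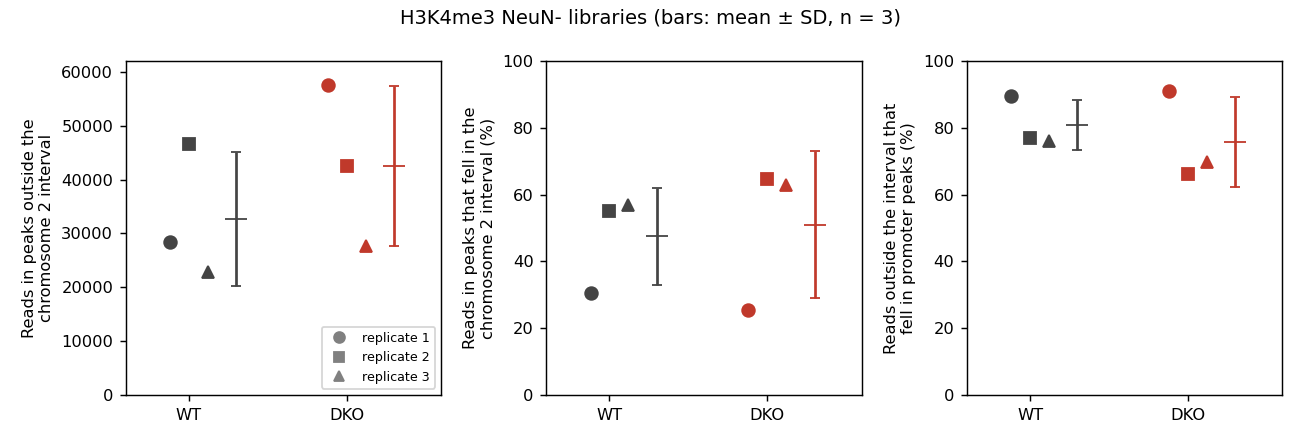
Reads in peaks outside the chromosome 2 interval (left), the share of reads in that interval (middle, %) and the share of the remaining reads in promoter peaks (right, %), one symbol per H3K4me3 NeuN- library, with the mean and SD of 3 libraries. Replicate 1 of each genotype had the lowest share in the interval (30.6% and 25.5%) and the highest promoter share (89.5% and 91.2%).

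The NeuN- label could be checked only weakly against H3K4me3 peaks. Rbfox3, which encodes NeuN, had no peak in the NeuN- table, and 10 of 12 neuronal marker genes had a peak in the NeuN+ table. Peaks were present at 3 of 15 oligodendrocyte markers (Olig1, Ugt8a and Nkx6-2), 1 of 5 oligodendrocyte precursor markers (Vcan) and 3 of 13 astrocyte markers (Glul, Slc1a2 and Fgfr3). None of 14 microglial, 10 vascular and 2 ependymal or choroid markers had one, and Mbp, Gfap, Aqp4 and Csf1r were among the genes without a peak. The NeuN+ table, of 12625 peaks, covered more of these markers, with 5 oligodendrocyte, 2 precursor, 6 astrocyte, 2 microglial and 1 vascular. Presence of a glial marker peak therefore did not set the NeuN- fraction apart. None of the glial marker peaks in the NeuN- table passed the test between DKO and WT. Summed over its 3 peaks, the oligodendrocyte list lay between 12.3 and 35.2 scaled reads in WT and between 18.7 and 31.3 in DKO, and the astrocyte list between 18.9 and 24.6 and between 20.1 and 24.9. The single precursor peak had 0 to 9.67 scaled reads in WT and 1.56 to 6.71 in DKO. A shift in the proportion of cell types and a shift in the mark per nucleus cannot be told apart in these bulk samples.

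No peak reached an adjusted p under 0.05 in DKO against WT. Differentially enriched regions (DERs), peaks whose p was under 0.05 before adjustment and whose log2 fold change exceeded 0.5 in either direction, numbered 176 of 3266 (5.39%), 96 higher (2.94%) and 80 lower (2.45%) in DKO. At an unadjusted p under 0.05 alone the count was also 176 by limma, 111 by edgeR and 142 by DESeq2, and neither edgeR nor DESeq2 gave an adjusted p under 0.05. All 3 DKO libraries lay on one side of all 3 WT libraries at 344 peaks (10.5%), above at 177 (5.42%) and below at 167 (5.11%). Without any difference between genotypes, the p limit alone would pass a share near 0.05. Full separation of 3 against 3 would occur at a share near 0.1. The counts over all peaks are close to both, so they do not show that DKO and WT differ. The split of DERs into higher and lower moved with the scaling, to 53 higher and 24 lower with the authors' library factors and to 71 higher and 90 lower with total reads. It also rested on single libraries, with 162 higher and 60 lower without WT replicate 2, 48 higher and 73 lower without DKO replicate 2, and 101 higher and 156 lower without DKO replicate 1.

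With TMM scaling, promoter DERs were balanced between directions. Among them 155 of 3055 (5.07%) were DERs, 79 higher (2.59%) and 76 lower (2.49%), and the median log2 fold change over all promoter peaks was 0.03. In 54 of the 79 and 51 of the 76 the DKO and WT libraries did not overlap, against 168 (5.5%) and 159 (5.2%) of all promoter peaks. The DER call and the overlap use the same values, so the higher share among DERs follows from how they were chosen. Higher DERs had a median of 4.91 scaled reads in WT and 14.6 in DKO, and lower DERs 13.99 in WT and 5.58 in DKO, so each group mean rested on few reads. GC content, CG count and presence of a NeuN+ peak in these DERs were close to those of all promoter peaks, with medians of 70.6% and 72.1% GC in higher and lower DERs and 92.4% and 96.1% of them overlapping a NeuN+ peak, against 94.7% of all.

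DERs among the 211 peaks outside promoters were mostly higher in DKO. DERs numbered 21 (9.95%), 17 higher (8.06%) and 4 lower (1.9%), and the median log2 fold change over all 211 was 0.23. The libraries behind this median differed by replicate. Relative to the WT mean, the median peak outside promoters was at -0.15, 0.91 and 0.62 in DKO replicates 1, 2 and 3 and at -0.40, 0.34 and 0.07 in the WT replicates on the log2 scale, so that replicate 1 was lowest in both genotypes and the groups overlapped. Without DKO replicate 1 the median rose to 0.67 and the DERs outside promoters to 42, 34 of them higher. With cyclic loess scaling the median was 0.00 and the DERs numbered 19, 12 of them higher. Of the 17 higher DERs, 14 (82.4%) overlapped a Suz12 peak and 11 (64.7%) an H3K27me3 peak called in the same NeuN- nuclei, against 44.1% and 27.5% of all 211 peaks outside promoters, and in 6 of the 17 (2.84% of the 211) DKO and WT libraries did not overlap. The 17 were also better covered, with a median of 21.0 scaled reads against 7.05 for all 211. Whether coverage accounts for their overlap with Suz12 and H3K27me3 peaks was not tested.

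**Figure D2:**
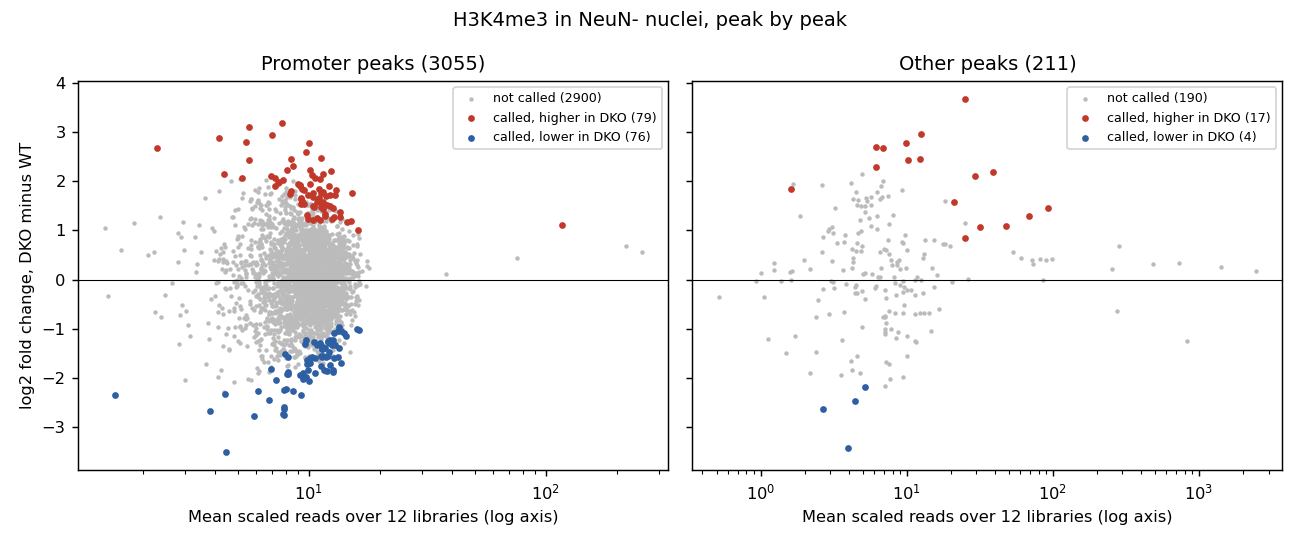
Log2 fold change (DKO minus WT) of each H3K4me3 NeuN- peak against its mean scaled reads over 12 libraries (log axis), promoters on the left and other peaks on the right. DERs are in red (79 promoter and 17 other peaks higher in DKO) and blue (76 and 4 lower), and most promoter peaks lie near 10 scaled reads.

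Peaks are named below by smallest p among DERs whose DKO and WT libraries do not overlap, 8 promoters and up to 6 other peaks per direction. All 26 therefore differ by choice, at 1.77% (higher) and 1.67% (lower) of promoter peaks that met both conditions, and apart from Axin2 and Fbxw4 their adjusted p lay between 0.842 and 0.906 (limma). Values are scaled reads, that is recovered reads scaled by TMM library factors, in replicates 1, 2 and 3.

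Washc4 encodes a subunit of the WASH complex, which builds actin on endosomes. Its promoter window (chr10:83543950-83544350) had 0, 6.15 and 0 scaled reads in WT and 15.1, 7.83 and 15.6 in DKO. The log2 difference was 2.79 ± 0.80 (SE, n = 3 per genotype, adjusted p = 0.842, limma). Jund encodes JunD, a subunit of the AP-1 transcription factor. Its window (chr8:70699530-70699930), which starts 581 bp past the start site, had 2.45, 11.4 and 3.43 scaled reads in WT and 19.3, 25.7 and 12.5 in DKO. The groups came close, at 11.4 and 12.5, and the log2 difference was 1.75 ± 0.51. Vdac1 encodes the main channel of the outer mitochondrial membrane. Its window (chr11:52361054-52361454) had 2.45, 8.79 and 5.14 scaled reads in WT and 12.1, 21.2 and 15.6 in DKO, a log2 difference of 1.51 ± 0.53. The call was lost when the replicate 1 libraries were left out.

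Gpd1l, which encodes a glycerol-3-phosphate dehydrogenase-like protein, had 8.59, 1.76 and 0 scaled reads in WT and 12.1, 27.96 and 10.9 in DKO at chr9:114933467-114933867. Cul2 encodes a cullin, the scaffold of the ubiquitin ligase that contains VHL. It had 7.36, 0 and 10.3 in WT and 18.1, 19.0 and 23.4 in DKO at chr18:3383165-3383565, the tightest DKO values of the 8 relative to their mean (20.1 ± 2.82, SD). Maneal, an endomannosidase-like gene, had 6.14, 0 and 0 in WT and 12.7, 12.3 and 28.02 in DKO at chr4:124862013-124862413. Rbsn encodes rabenosyn-5, an early endosome Rab effector, and had 2.45, 8.79 and 0 in WT and 10.8, 21.2 and 12.5 in DKO at chr6:92214432-92214832. The log2 differences of these 4 lay between 2.21 and 3.18, with SEs of 0.69 to 1.01. Sfi1, which encodes a centrin-binding protein of the centrosome, was listed at 0 in all 3 WT libraries and had 1.81, 21.2 and 9.34 scaled reads in DKO at chr11:3165199-3165599. This window, 602 bp before the start site, held only 3 CG dinucleotides and 43.6% GC, unlike the other 7, which held 34 to 58. It was no longer called without DKO replicate 2. Further peaks annotated to Sfi1 were not DERs, with log2 differences from -1.55 to 1.49. The best covered of these, a promoter peak with a mean of 218 scaled reads over the 12 libraries, differed by 0.69 without overlap.

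Gna11, the gene of the G protein subunit that couples receptors to phospholipase C, led the promoters lower in DKO. Its window (chr10:81544503-81544903) had 20.9, 20.2 and 25.7 scaled reads in WT and 7.23, 3.36 and 9.34 in DKO. It had the highest WT level of the 16 named promoters, with means of 22.3 ± 3.004 in WT and 6.64 ± 3.04 in DKO (SD). The log2 difference was -1.69 ± 0.50 (adjusted p = 0.842). B2m encodes beta-2-microglobulin, the light chain of MHC class I molecules. Its window (chr2:122147849-122148249) had 12.3, 15.8 and 13.7 scaled reads in WT and 3.62, 2.24 and 0 in DKO, a log2 difference of -2.59 ± 0.83. Frmd4b, a FERM domain scaffold gene, was as steady in WT, with 12.3, 14.1 and 13.7 scaled reads against 4.22, 3.36 and 1.56 in DKO (chr6:97616856-97617256, log2 difference -1.89 ± 0.62).

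Adk encodes adenosine kinase, which clears adenosine and in the adult brain is found mainly in astrocytes. Its promoter window (chr14:21052256-21052656) had 3.68, 14.9 and 18.9 scaled reads in WT and was listed at 0 in all 3 DKO libraries. Pigg, an enzyme of GPI anchor synthesis, had 11.05, 8.79 and 17.1 in WT and 6.03, 0 and 0 in DKO (chr5:108312629-108313029). Vps26b, a retromer subunit that sorts cargo from endosomes, had 8.59, 8.79 and 12.0 in WT and 4.22, 0 and 0 in DKO (chr9:27029702-27030102). Ubtd1, a ubiquitin domain protein, had 17.2, 11.4 and 10.3 in WT and 7.83, 0 and 0 in DKO (chr19:41981485-41981885). In these 3 the DKO reads all came from replicate 1, the deepest library. Kbtbd3, a kelch and BTB domain gene, had 15.96, 7.91 and 3.43 in WT and 0, 1.12 and 0 in DKO (chr9:4309523-4309923), where the DKO value was 1 read in all. Its call was also lost without the replicate 1 libraries. Just past the naming limit were Rptor, higher, with a log2 difference of 2.07 beside 1.51 for Vdac1 as the last named, and Nbeal1, lower, with -2.26 beside -2.77 for Kbtbd3.

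**Figure D3:**
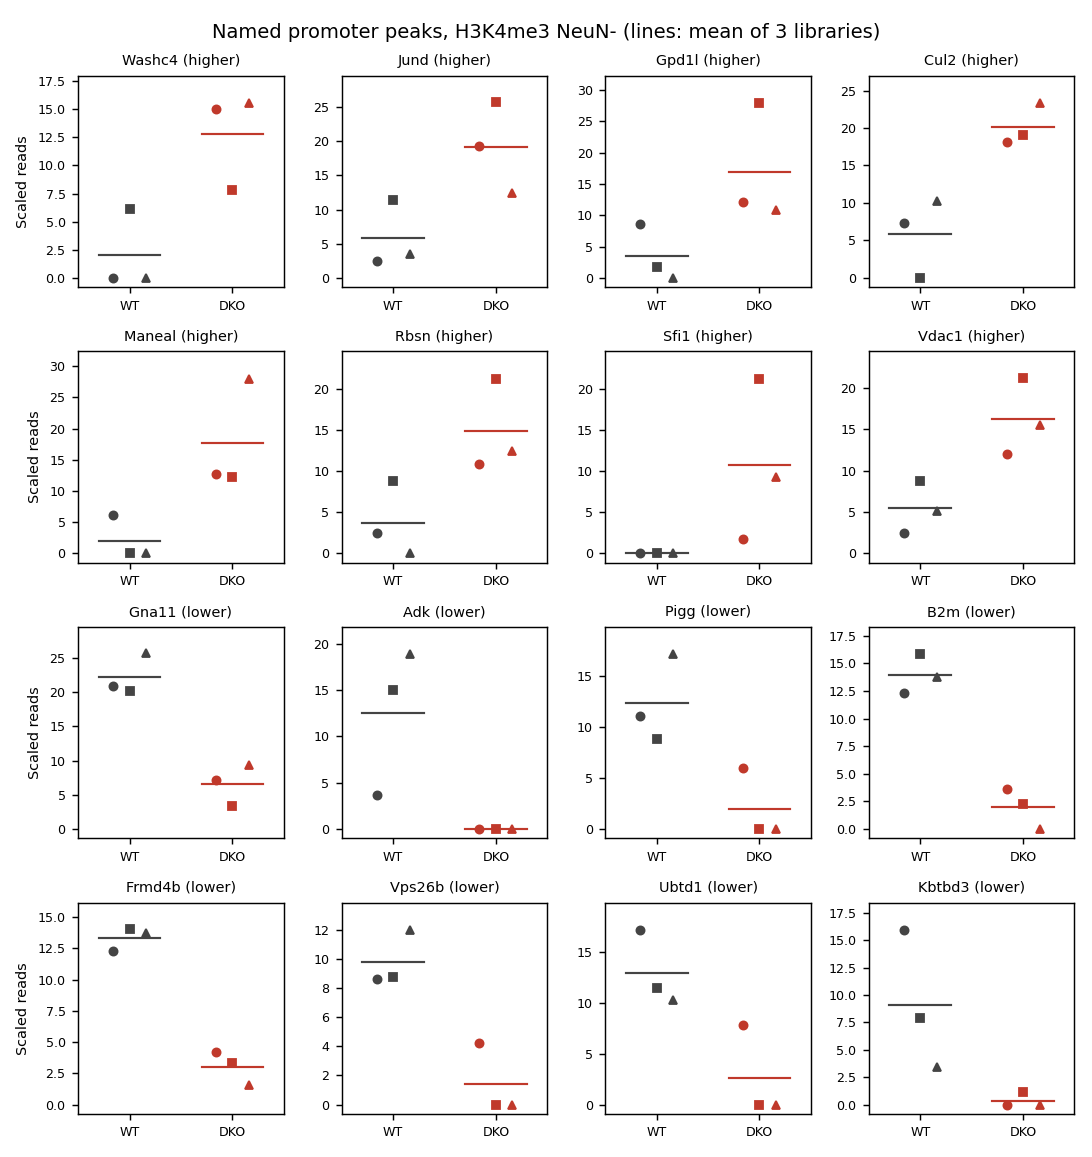
Scaled reads at the 16 named promoter windows in H3K4me3 NeuN- nuclei, one symbol per library (circle, square and triangle for replicates 1, 2 and 3), with the mean of 3 libraries as a line. The windows were chosen so that DKO and WT do not overlap. Gna11 (22.3 against 6.64 on average) has the highest WT mean, and Adk is at 0 in all 3 DKO libraries.

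Outside promoters the leading window was annotated to Axin2, the gene of a feedback inhibitor of Wnt/beta-catenin signalling, from which it lies 68147 bp away (chr11:109011768-109012168, distal intergenic). It had 50.3, 31.6 and 36.0 scaled reads in WT and 77.7, 151 and 106 in DKO. It was among the best covered of the named windows, and the log2 difference was 1.46 ± 0.30 (adjusted p = 0.095). A separate peak at the Axin2 promoter was not a DER, and its DKO and WT libraries overlapped (log2 difference -0.23). The adjusted p of the distal window ranged from 0.00013 to 0.9992 over the alternatives and was 0.89 with robust empirical Bayes. The second, in intron 1 of Fbxw4, an F-box protein gene (chr19:45649970-45650370), had 0, 14.1 and 0 in WT and 15.7, 41.4 and 43.6 in DKO (log2 difference 3.68 ± 0.76, adjusted p = 0.095). Repeats made up 67.3% of this window, and its adjusted p ranged from 0.00015 to 0.9992 over the alternatives.

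Cdk8 encodes the kinase of the Mediator complex. The window in an intron annotated to it (chr5:146260859-146261259) had 31.9, 65.05 and 18.9 scaled reads in WT and 74.1, 115 and 73.2 in DKO, a log2 difference of 1.30 ± 0.36, and was not called with cyclic loess. The exonic window named for Cela3a, a pancreatic elastase gene (chr4:137388004-137388404), had 0, 7.03 and 0 in WT and 11.4, 14.5 and 12.5 in DKO (2.78 ± 0.78). The window 47065 bp before Mir6356 (chr18:68691935-68692335) had 0, 1.76 and 3.43 in WT and 6.63, 11.2 and 20.2 in DKO, and matched 11 places in the genome. The intronic window named for Tmem267 (chr13:119597815-119598215) had 6.14, 5.27 and 0 in WT and 6.63, 39.1 and 21.8 in DKO. Its groups almost touched at 6.14 and 6.63, and the call was lost in 8 of 21 alternatives. Further peaks annotated to Tmem267 were not DERs, with log2 differences of 0.50 at its promoter and -1.56 and -0.24 outside promoters.

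Only 4 windows outside promoters met the rule in the lower direction. Those named for 4933438K21Rik (exon, chr4:147126298-147126698) and 4930467K11Rik (distal, chr10:57444717-57445117) were listed at 0 in all 3 DKO libraries, with 3.68, 16.7 and 13.7 and with 7.36, 2.64 and 6.86 scaled reads in WT. The window nearest to Chil4, a chitinase-like gene (chr3:106198331-106198731), had 9.82, 13.2 and 6.86 in WT and 6.03, 0 and 0 in DKO. The window nearest to Tmem125 (chr4:118548152-118548552) had 4.91, 12.3 and 12.0 in WT and 2.41, 2.24 and 0 in DKO and matched 27 places in the genome. The calls at Chil4 and Tmem125 were lost in 8 and 7 of 20 alternatives, that at 4933438K21Rik with DESeq2 and that at 4930467K11Rik without the replicate 1 libraries. Another window named for 4930467K11Rik was not a DER (log2 difference -0.28).

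The single knockouts share the WT libraries with DKO, so their values stand beside the DKO values without a count of agreement. At the Axin2 window Mutyh-/- had 101, 106 and 91.3 scaled reads and Ogg1-/- 105, 140 and 117, all above the highest WT library (50.3). At Cela3a they had 9.62, 10.2 and 19.4 and 10.2, 10.0 and 14.7, above the WT maximum of 7.03. At Fbxw4 Mutyh-/- had 26.1, 29.8 and 42.7 and Ogg1-/- 6.11, 54.5 and 29.3, of which the 6.11 fell below one WT library. Among promoters, Washc4 had 8.25, 18.7 and 7.77 in Mutyh-/- and 14.3, 10.0 and 15.99 in Ogg1-/-, above WT in each library. By contrast, at Frmd4b Mutyh-/- had 10.3, 13.6 and 9.71 and Ogg1-/- 8.15, 15.6 and 6.66, and replicate 2 of both reached or passed the WT range of 12.3 to 14.1. Kbtbd3 and Vps26b likewise reached into the WT range in both single knockouts. 4933438K21Rik was listed at 0 in all 3 Mutyh-/- libraries and at 0, 13.3 and 0 in Ogg1-/-.

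**Figure D4:**
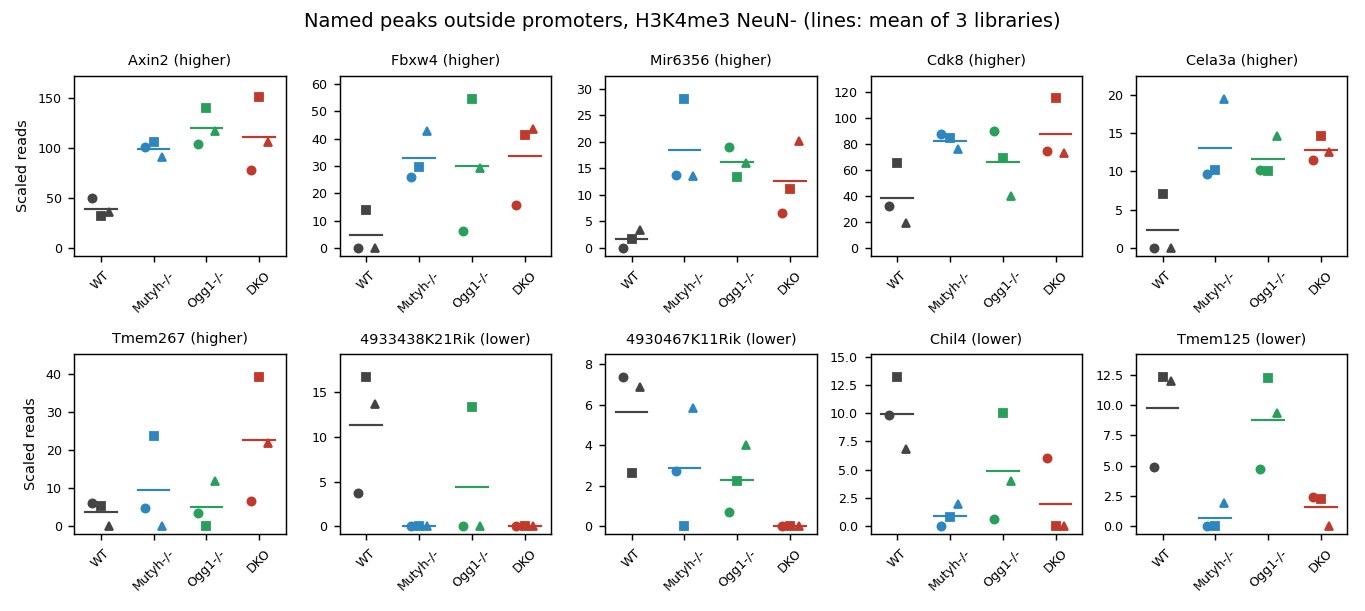
Scaled reads at the 10 named windows outside promoters in the 4 genotypes of H3K4me3 NeuN- nuclei, one symbol per library (circle, square and triangle for replicates 1, 2 and 3), with the mean of 3 libraries as a line. Both single knockouts lie above WT at Axin2, where WT ends at 50.3, and 4933438K21Rik is at 0 in every Mutyh-/- and DKO library.

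The DKO carries both engineered loci, so peaks within 10 Mb of each were looked at separately. Neither Ogg1 nor Mutyh had an H3K4me3 peak in the NeuN- table, so the deletions could not be checked in these values. In the NeuN+ table Ogg1 had 1 peak, whose values are not given here, and Mutyh had 0. Near Ogg1, 2 of 29 peaks (6.9%) were DERs, close to the 5.39% of all peaks. Brpf1, a scaffold of histone acetyltransferase complexes 0.019 Mb away, had 19.6, 23.7 and 24.0 scaled reads in WT and 9.04, 7.83 and 14.01 in DKO (log2 difference -1.09 ± 0.50), with 14.9, 11.1 and 2.67 in Ogg1-/- and 14.4, 16.2 and 11.7 in Mutyh-/-. Emc3, a membrane protein insertase subunit 0.196 Mb away, had 7.36, 2.64 and 5.14 in WT and 10.2, 21.2 and 23.4 in DKO (1.68 ± 0.81). In Ogg1-/- Emc3 had 14.3, 2.22 and 0, and in Mutyh-/- 14.4, 11.9 and 11.7. Near Mutyh, 3 of 42 peaks (7.14%, also close to that share) were DERs, the 2 named above for Tmem125 and Maneal, and Meaf6, a subunit of acetyltransferase complexes, with 2.45, 7.03 and 0 in WT and 9.64, 20.1 and 14.01 in DKO. Meaf6 had 11.7, 6.80 and 1.94 in Mutyh-/- and 6.11, 18.9 and 4.00 in Ogg1-/-. Maneal had 4.81, 12.8 and 9.71 in Mutyh-/- and 2.04, 0 and 4.00 in Ogg1-/-. At Tmem125, 1.73 Mb from Mutyh, Mutyh-/- had 0, 0 and 1.94 scaled reads and Ogg1-/- 4.75, 12.2 and 9.33, so both genotypes that lack Mutyh were below WT and Ogg1-/- was not. An effect of the lost enzyme and one of DNA carried along with the engineered locus cannot be told apart at these peaks.

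The same comparison was made in separate libraries of NeuN+ nuclei. Both fractions were sorted from pooled hippocampi of these genotypes, so the NeuN+ libraries may come from the same animals. A NeuN+ peak overlapped 20 of the 26 named windows, and none of the 20 was a DER there by limma. Over all 12625 NeuN+ peaks the share of DERs was 5.52%. The 7 NeuN+ peaks at promoters higher in NeuN- had log2 differences from -0.04 to 0.40, 5 of them positive, and the 8 at promoters lower in NeuN- from -0.37 to 0.44, 5 positive and 3 negative. In NeuN+ nuclei Gna11 had 34.1, 39.0 and 39.2 scaled reads in WT and 35.2, 28.6 and 46.5 in DKO, with overlapping groups (log2 difference -0.05 ± 0.25). At B2m the NeuN+ groups also overlapped, with 14.8, 14.8 and 27.8 in WT and 28.8, 19.3 and 26.5 in DKO. The Cdk8 window differed by 1.19 ± 0.58 in NeuN+, with 11.4, 41.7 and 59.8 in WT and 99.2, 32.9 and 111 in DKO, and the Axin2 window by 0.52 ± 0.38. The widest of the 20 NeuN+ differences was at Tmem125, -2.23 ± 1.16, with 11.4, 13.5 and 0 scaled reads in WT and 0, 0 and 0.716 in DKO, and with edgeR Tmem125 and Cdk8 were DERs in NeuN+. Scaled reads were normalised within each table, and the difference between fractions was not tested.

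**Figure D5:**
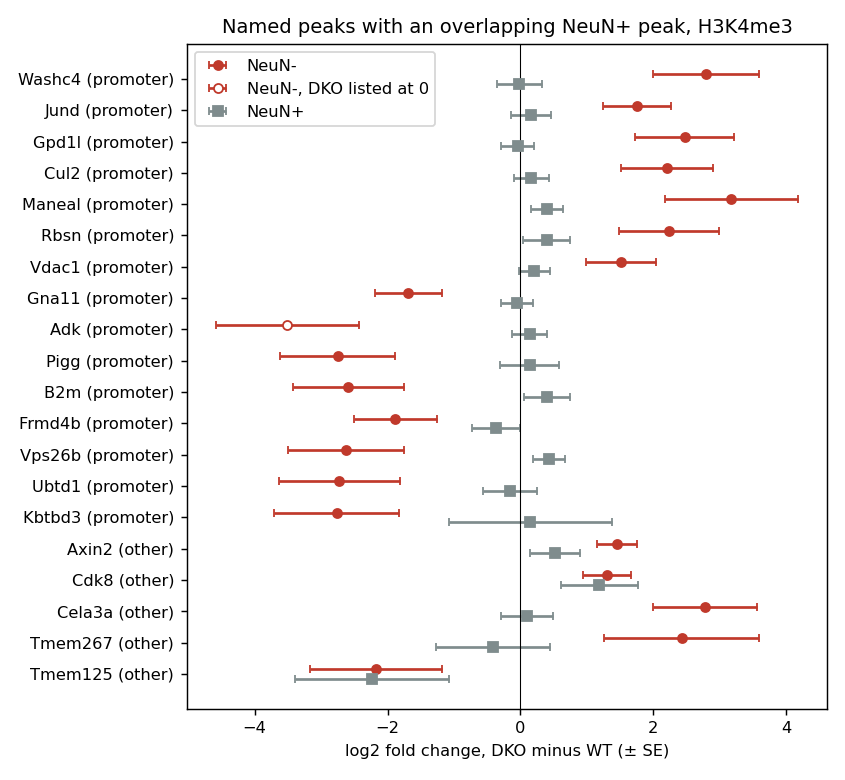
Log2 fold change (DKO minus WT, with SE) in NeuN- (circles) and NeuN+ (squares) nuclei at the 20 named windows with an overlapping NeuN+ peak. The open circle is Adk, which is at 0 in all DKO NeuN- libraries, so that its position depends on the pseudocount, and NeuN+ promoter values lie between -0.37 and 0.44.

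H3K27me3, the mark of Polycomb repressive complex 2 (PRC2), and its subunit Suz12 were profiled in the same kind of nuclei. Of the 16 named promoters, none overlapped an H3K27me3 peak and 1 (Sfi1) overlapped a Suz12 peak. Outside promoters, Axin2, Cdk8, Fbxw4, Mir6356 and Tmem125 had a peak in both tables and Tmem267 in Suz12. The Cdk8 window had 129, 97.8 and 153 scaled reads of H3K27me3 in WT and 267, 193 and 204 in DKO, without overlap (log2 difference 0.81 ± 0.89, not a DER). For Suz12 it had 263, 66.4 and 76.2 in WT and 98.0, 52.4 and 163 in DKO, with overlap. Axin2 had 252, 53.7 and 126 of H3K27me3 in WT and 378, 207 and 270 in DKO (log2 difference 1.201 ± 0.93), and the groups overlapped. Reads of all 3 antibodies thus lay in these windows. At Tmem125 the 3 DKO libraries were listed at 0 for both H3K27me3 (WT 19.5, 9.54 and 21.1, adjusted p = 0.054 by limma) and Suz12 (WT 5.74, 9.80 and 14.9, adjusted p = 0.36). For H3K27me3 the adjusted p was 0.0085 with edgeR and 0.9995 with the authors' factors. Tmem125 was a DER in both tables, where 3.19% of the 1695 H3K27me3 peaks and 7.79% of the 308 Suz12 peaks were. The overlapping H3K4me3 window matched 27 places in the genome and lies 1.73 Mb from the engineered Mutyh locus.

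Gene lists chosen for this tissue and genotype showed few changes. B2m was the single DER among the 53 peaks of all gene and marker lists, where the share over all peaks was 5.39%. Of 24 base excision repair genes 5 had a NeuN- peak (Lig3, Apex1, Nthl1, Fen1 and Ung), 4 with a positive log2 difference and a median of 0.44, against 1704 positive of 3266 and a median of 0.04 over all peaks. Fen1, the flap endonuclease, had 8.59, 3.52 and 8.57 scaled reads in WT and 9.04, 8.95 and 10.9 in DKO, a narrow gap that did not pass the test. Apex1, the main abasic site endonuclease, had 7.36, 5.27 and 17.1 in WT and 5.42, 6.71 and 0 in DKO. Of 24 antioxidant genes 4 had a peak (Prdx6, Sod2, Cat and Gsr), 3 positive, with a median of 0.19.

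Peaks at 10 of 18 H3K4 methyltransferase and demethylase genes had a median of -0.10, with 2 positive and none a DER. Kdm5a, a demethylase of H3K4me3, had 18.4, 14.1 and 22.3 scaled reads in WT and 9.64, 10.1 and 9.34 in DKO, and Kmt2a, a methyltransferase of this mark, 15.96, 12.3 and 20.6 and 11.4, 3.36 and 6.23. In these 2 of the 10 peaks DKO lay below WT without overlap, against 5.11% of all peaks, and neither was a DER. Summed over the 10 peaks, scaled reads were 117 to 137 in WT and 76.1 to 114 in DKO. The 5 peaks at 4 PRC2 genes (Jarid2, Ezh2, Aebp2 and Eed) had a median of -0.20, and 2 were positive. Of 25 genes of cholesterol and myelin lipid synthesis 7 had a peak, with a median of -0.45 and 2 positive. Among them Fa2h, which makes the hydroxylated lipids of myelin, had 9.82, 4.40 and 10.3 in WT and 4.22, 2.24 and 3.11 in DKO. The groups almost touched at 4.40 and 4.22, and Fa2h did not pass the test (adjusted p = 0.93, limma). Of the interferon and antigen presentation list, B2m is described above, and the peak at Jak1, a kinase of interferon receptors, was not a DER.

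The 6 peaks at cAMP signalling genes (Prkar1a, Prkar2b, Pde4d, Crem, Gnas and Prkacb) were all positive, with a median of 0.27 and no DER. Their summed scaled reads were 46.6 to 61.7 in WT and 63.8 to 71.6 in DKO. This sum and that of the H3K4 enzyme list were the 2 of 8 gene list sums without overlap, in opposite directions. Among single peaks 10.5% had none, but a sum over a list is another measure than a single peak. None of the 6 cAMP peaks had DKO and WT libraries apart. Of 11 genes that the study discusses by name, 5 had a NeuN- peak (Sema4c, Wnt6, Glis1, Grm7 and Oaf), 3 positive, with a median of 0.14 and no DER. That list was chosen by the study on these animals and is not independent evidence.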

How the data were processed

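H3K4me3 ChIP-seq signal of NeuN- hippocampal nuclei was taken from the authors' table of consensus peaks. Per the study's methods, reads were mapped by the authors to GRCm38/mm10 with Bowtie2 (2.3.5.1 in the submitters' notes). They called peaks with epic2, kept those in several replicates, counted reads with DiffBind (3.10.1) and annotated peaks with ChIPseeker (1.36). The deposited signal is reads per peak divided by a library factor. All values (100%) were whole multiples of one step per library, within 0.01, which gave whole reads. The 4 peaks of a chromosome 2 interval were left out.

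Reads were scaled with TMM factors (edgeR 4.0.16) and tested as log2(scaled reads + 1) with limma 3.58.1 (R 4.3.3), 12 libraries in one fit, Benjamini-Hochberg over 3266 peaks. Fold changes on this scale understate changes at low peaks. edgeR quasi-likelihood and DESeq2 1.42.0 on the recovered reads were alternatives. Overlap between tables required 1 bp. Copies were counted with blastn 2.17.0 (95% identity over 50% of the window), repeats as soft-masked bases. Scripts were tested on simulated data. Peaks were named by smallest p among DERs with no overlap between DKO and WT libraries. The members, lists and naming rule were chosen with earlier results of these data known. Samples pool animals, and labels do not say whether replicates were sorted separately, so p-values measure the spread between these samples. Values at some members of the neuronal marker and interferon lists are not reported here.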

Additional observations from a re-analysis of the deposited data

Results flagged for a closer look

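The Vps26b promoter was lower in DKO than in WT in NeuN- nuclei and higher in NeuN+ nuclei, in each case without overlap between the 3 DKO and the 3 WT libraries. In NeuN+ nuclei WT had 33.0, 26.9 and 34.0 scaled reads and DKO 54.4, 39.3 and 35.8, a log2 difference of 0.44 ± 0.24, against -2.62 ± 0.87 in NeuN- nuclei. The NeuN+ peak was not a DER, and in NeuN- nuclei all DKO reads came from replicate 1 (4.22, 0 and 0 scaled reads). Vps26b was flagged from among the named windows with a NeuN+ peak. Of these, Maneal also lacked overlap in NeuN+ nuclei, with DKO higher as in NeuN- nuclei. Lack of overlap alone is not rare, at 10.5% of all NeuN- peaks. The difference between fractions was not tested, and the NeuN- peak had been chosen for its lack of overlap.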

How the results depend on the processing

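All 26 named peaks kept their direction in every alternative that tested them (540 values), and 511 of the 540 stayed DERs. They were chosen on these same libraries for small p and lack of overlap. The kept direction was thus largely fixed by that choice and is no independent support. The 29 lost calls fell mostly on Tmem267, Chil4 and Tmem125. The 176 DERs became 77 with the authors' factors (53 higher, 24 lower, 60 promoters, 39 of them higher, and 1 adjusted p under 0.05, at Fbxw4). They became 111 with edgeR's quasi-likelihood test (56 higher, 93 promoters, 43 of them higher). DESeq2 left 10 higher DERs outside promoters, and a fit of the DKO and WT libraries alone 52 higher at promoters. A pseudocount of 5 gave 1 adjusted p under 0.05, at Fbxw4. With total reads as library size the median log2 change was -0.057 over all peaks and -0.069 at promoters.

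Without single replicates DERs ranged from 121 to 257, higher ones from 48 to 162, lower ones from 57 to 156, and adjusted p under 0.05 from 0 to 4 (Aida, Axin2, Kctd16 and Fbxw4 without DKO replicate 1). Promoter DERs ranged from 103 to 215, 38 to 138 of them higher, and others from 14 to 42, 10 to 34 of them higher. Medians ranged from -0.057 to 0.083 over all peaks, from -0.074 to 0.082 at promoters and from 0.00 to 0.67 elsewhere. A fit of the 8 libraries numbered 2 and 3, chosen after seeing the data, gave 41 DERs outside promoters, 36 of them higher, and 5 adjusted p under 0.05 (Aida, P4ha2, Axin2, Kctd16 and Fbxw4).

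Same-numbered DKO and WT libraries deviated together only weakly (r = 0.08, 0.03 and 0.02), although each correlated best with its own number, so the numbers were not taken as pairs. With a replicate block there were 202 DERs and 2 adjusted p under 0.05 (Axin2 and Fbxw4). The block with edgeR, chosen after seeing the data, gave 115 DERs (59 higher, 95 promoters, 44 of them higher) and 0 adjusted p under 0.05, so neither adjusted call was kept. At the named windows in NeuN+ nuclei the block gave 1 DER (Cdk8) and edgeR without the block 2 (Cdk8 and Tmem125), against 0. For H3K27me3 the block made the Axin2 window a DER (log2 difference 1.201 ± 0.561) and took Tmem125 to an adjusted p of 0.0165 (limma). Depth limits most peaks, at 5 to 16 reads in the median peak of a library.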
